A study of Homo sapiens with 6 samples.

Results

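The Sonic hedgehog pathway genes described here are 9 genes of the signalling core, namely PTCH1, SMO, BOC, CDON, GAS1, SUFU, GLI1, GLI2 and GLI3, of 36532 genes listed in the transcript files. They were chosen by gene symbol, with the TPM (transcripts per 1000000) of all transcripts of a gene identifier summed, and each symbol matched 1 identifier. AT/RT (atypical teratoid rhabdoid tumor) is a brain tumor of young children, defined by loss of the SWI/SNF chromatin remodelling subunit SMARCB1. Total RNA of 4 AT/RT cell lines bought from ATCC was sequenced as 6 libraries, where CHLA 02 and CHLA 05 gave 1 library each and CHLA 04 and CHLA 06 were sequenced as 2 technical replicates. All lines grew without any treatment in DMEM:F12 with EGF and basic FGF (20 ng/mL each) and 2% B-27, and no library came from normal cells or from cells with SMARCB1 restored. Each line was thus represented by 1 biological sample, so no test between lines was possible, and the spread between cultures of a line was not measured. Earlier work cited by the study placed CHLA 02, CHLA 04 and CHLA 05 in the neurogenic AT/RT group and CHLA 06 in another. By a later scheme that the study cites, the neurogenic group is ATRT-SHH and the other is ATRT-MYC or ATRT-TYR. These classes are background and defined no group here.

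In hedgehog signalling, the secreted ligands SHH, IHH and DHH bind the receptor PTCH1 with the help of the cell surface coreceptors BOC, CDON and GAS1. Free PTCH1 holds back SMO. Once ligand is bound, SMO acts at the primary cilium to release the GLI transcription factors from SUFU. GLI1 is an activator, GLI2 is mainly an activator, and GLI3 acts largely as a repressor when ligand is absent. PTCH1 and GLI1 are themselves target genes, so their levels are commonly used to read out the pathway. In the developing cerebellum, SHH drives the division of granule neuron progenitors.

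The libraries held 10265899 to 20520229 reads on transcripts, recovered from the TPM steps, and for a 1000 bp transcript each read added 0.117 to 0.236 TPM. In the CHLA 02 library, values lay between those of other lines more often than in any other line. Over 16035 genes with at least 1 TPM in a line, CHLA 02 was neither highest nor lowest for 72.3%, against 39.1% to 51.1% in the other lines. Over 488 genes with at least 20 TPM in CHLA 04 and over 10-fold less in CHLA 06, CHLA 02 held a median of 0.384 of the CHLA 04 TPM (10th to 90th percentile 0.188 to 0.689). Over 394 genes of the reverse kind, it held a median of 0.558 of the CHLA 06 TPM (0.313 to 0.895). In CHLA 05 these medians were 0.469 (0.0557 to 1.53) and 0.0297 (0 to 0.479). By the same limits, CHLA 04 had 4 genes and CHLA 06 had 1 gene over 10-fold above CHLA 02. Most counts of called genes that rest on CHLA 02 are therefore given with and without it. Median ranges, percentiles and the line with the highest mean are given with it only. The part this pattern had in these results was not tested. Whether this library or culture was a mixture cannot be told from TPM, so its values are those of the library labelled CHLA 02.

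**Figure D1:**
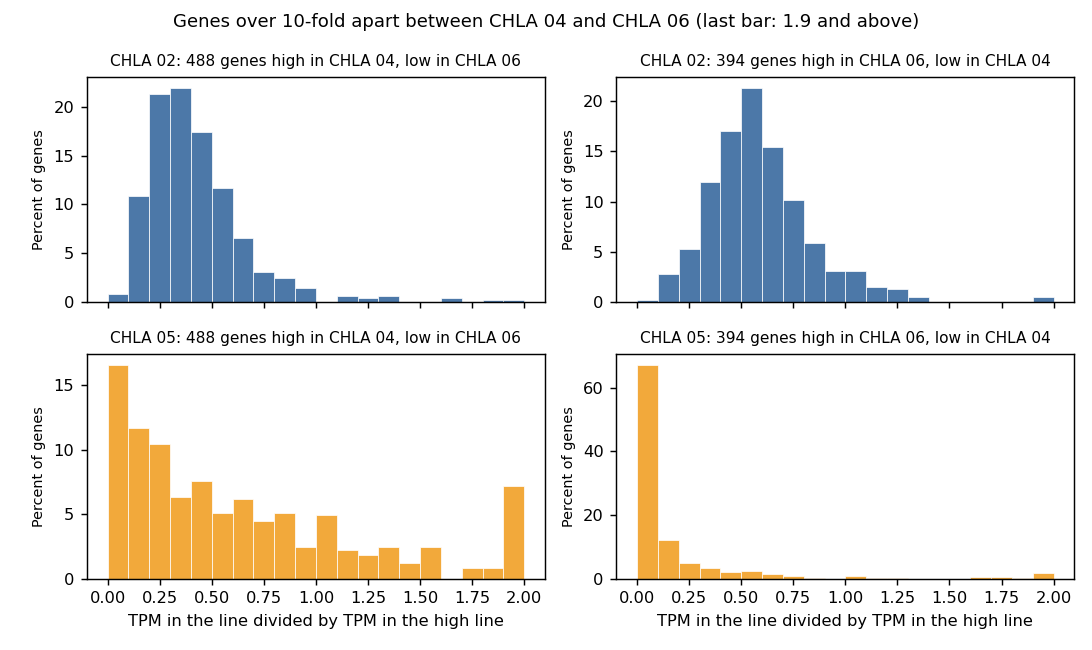
Histograms of TPM in CHLA 02 (top) and CHLA 05 (bottom) divided by TPM in the higher of CHLA 04 and CHLA 06, over 488 genes high in CHLA 04 (left) and 394 genes high in CHLA 06 (right); the y axis is the percent of genes. CHLA 02 held intermediate shares of both gene sets, with medians of 0.384 and 0.558, and CHLA 05 held little of the CHLA 06 set.

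All 9 genes had at least 1 TPM in a line, and 8 of them had it in every library, GLI3 in CHLA 06 being the exception. A gene was called between lines when the highest and lowest line differed by more than 1 in log2(TPM + 1) and their libraries did not overlap. By this rule 6 of the 9 genes were called (PTCH1, BOC, CDON, GAS1, GLI2 and GLI3), beside 51.2% of all genes tested. The median range between lines was 1.33 for the 9 genes and 1.02 for all genes on the log2 scale. Without CHLA 02, PTCH1 was not called, and 5 of the 9 genes were, beside 48.6% of all genes. GLI3, BOC, GAS1 and GLI2 had the widest ranges, at the percentiles 99.1, 96.4, 94.8 and 90.2 of all genes tested, and SUFU had the narrowest, at 16.8.

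**Figure D2:**
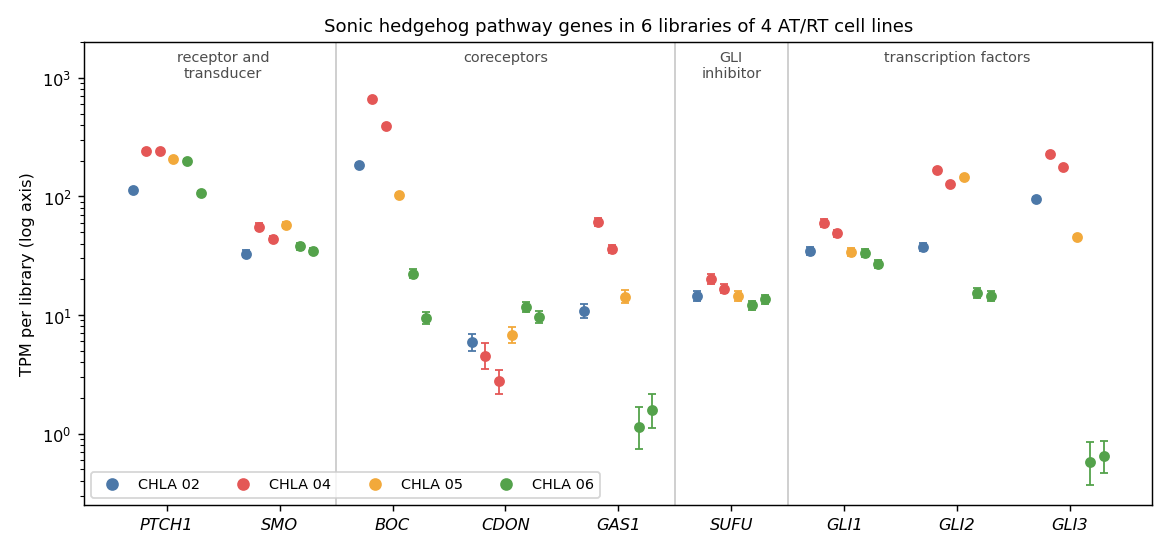
TPM of the 9 genes in each of the 6 libraries on a log axis, coloured by cell line, with bars for the exact 95% Poisson interval of the recovered reads. GLI3 in CHLA 06 lies at 0.570 and 0.646 TPM and between 45.3 and 229 TPM elsewhere, whereas SUFU, GLI1 and SMO stay within narrow bands.

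**Figure D3:**
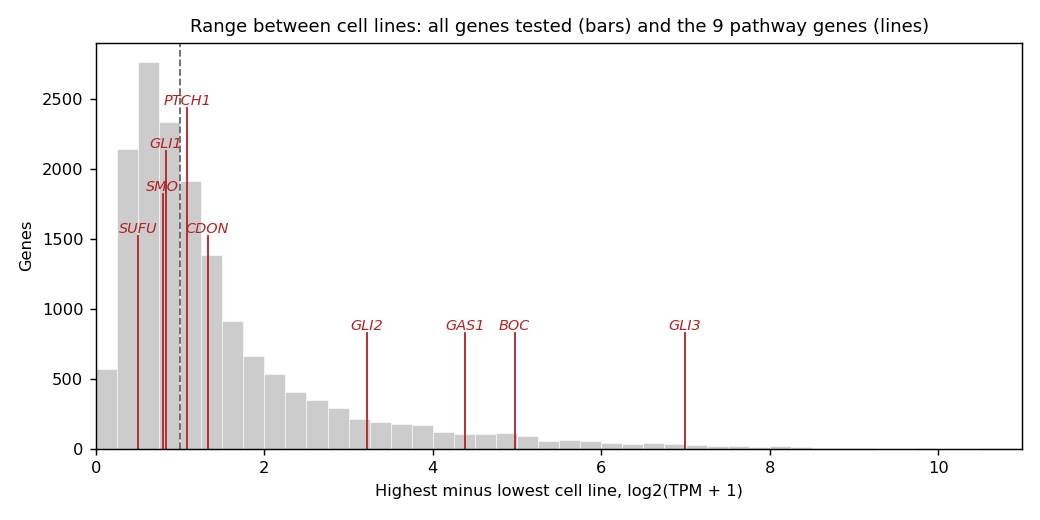
Number of genes (y axis) by the difference between the highest and lowest cell line in log2(TPM + 1) (x axis) for 16035 genes, with the 9 pathway genes as lines and the limit of 1 dashed. GLI3 (6.99), BOC (4.97), GAS1 (4.39) and GLI2 (3.21) lie in the tail, and SUFU (0.50) lies at the left.

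PTCH1, the ligand receptor, lies on chromosome 9 of GRCh38 from 95442980 to 95517057 on the minus strand. CHLA 02 had 114 TPM, CHLA 04 had 244 and 241, CHLA 05 had 208, and CHLA 06 had 201 and 107. The 2 CHLA 06 libraries differed by 1.87-fold, more than 97.8% of genes with at least 100 reads in both, and CHLA 02 lay between them. From the highest to the lowest line, CHLA 04 over CHLA 02, the difference was 2.13-fold, or 1.09 in log2(TPM + 1). This fell to 0.96 when TPM was divided by the median ratio and to 0.88 after quantile normalization, both under the limit. With the first CHLA 06 library left out, CHLA 06 was lower than CHLA 04 by 1.17 on the log2 scale and the call between them was made. The position of PTCH1 relative to other lines in CHLA 06 thus rested on which library was read.

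PTCH1 had reads on 24 to 26 of its 27 listed transcripts. The most abundant one in every library was ENST00000331920, a protein-coding transcript that starts at 95508661 and held 26.3% to 31.3% of PTCH1 TPM. Transcripts of protein-coding type (GENCODE 44) held 48.6% to 58.9% of PTCH1 TPM in the 6 libraries. The shares of CHLA 06 were 58.9% and 58.7%, so the gap between its libraries was present without a change in that share.

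The RefSeq promoter table (GRCh38.p14) held windows for 7 of the 9 genes, 15 in all, each with 250 bases before and 50 after an annotated start. GLI1 and GLI3 were not in it. The GLI consensus motif GACCACCCA, searched on both strands, was found in 1 of the 15 windows, belonging to PTCH1, and in 0.236% of all 35116 windows. The 250 bases before that start are shown because PTCH1 is a known GLI target. The capitals mark the match, which reads TGGGTGGTC on the PTCH1 strand and begins 172 bases before the start. The sequence is chr9:95509267-95509516 on the minus strand, within the PTCH1 span, and it overlaps no listed PTCH1 exon.
PTCH1: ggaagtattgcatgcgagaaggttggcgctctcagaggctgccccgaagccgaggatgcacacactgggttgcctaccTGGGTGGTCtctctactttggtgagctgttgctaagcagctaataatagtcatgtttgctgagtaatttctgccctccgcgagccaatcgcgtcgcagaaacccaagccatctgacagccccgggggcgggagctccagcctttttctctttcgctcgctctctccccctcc
That RefSeq start lies 605 bases before the start of ENST00000331920. Allowing 1 mismatch, 3 windows held a match, all of them of PTCH1 and at 2 distinct sites, since 2 of the windows overlap, beside 6.74% of all windows. A match describes the letters only, and binding was not measured.

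SMO, the signal transducer, lies on chromosome 7 from 129188872 to 129213545 on the plus strand. CHLA 02 had 32.8 TPM, CHLA 04 had 55.5 and 43.6, CHLA 05 had 57.6, and CHLA 06 had 37.8 and 34.9. Levels were highest in CHLA 05 and lowest in CHLA 02, 1.75-fold apart, which did not reach the limit. The range was 0.79 on the log2 scale, and 0.65 without CHLA 02. The libraries of neighbouring lines did not overlap, but CHLA 02 and CHLA 06 differed by only 0.14 on the log2 scale. The protein-coding transcript ENST00000249373 held 89.0% to 98.8% of SMO TPM. The ratio of PTCH1 to SMO was 3.46 for CHLA 02, 4.40 and 5.52 for CHLA 04, 3.62 for CHLA 05, and 5.30 and 3.07 for CHLA 06. The libraries of CHLA 06 spanned CHLA 02 and CHLA 05 in this ratio.

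BOC is a coreceptor of the immunoglobulin superfamily, encoded on chromosome 3 from 113211003 to 113287459 on the plus strand. By TPM summed over its 17 listed transcripts, it had the highest mean level of the 9 genes. In log2(TPM + 1) it had the widest spread after GLI3. The rank of its mean depends on this summing, in which short and retained-intron transcripts count in full. GLI3 had more reads than BOC for CHLA 02 (4938 against 4393) and the second CHLA 04 library (9360 against 8687), and fewer in the other libraries. CHLA 02 had 184 TPM, CHLA 04 had 663 and 396, CHLA 05 had 102, and CHLA 06 had 22.3 and 9.47. These libraries fell in the order CHLA 04, CHLA 02, CHLA 05 and CHLA 06 with no overlap between lines. The mean of CHLA 04 was 33.3-fold above that of CHLA 06, or 4.97 in log2(TPM + 1). The CHLA 06 libraries differed by 2.36-fold, more than 99.4% of genes with at least 100 reads in both, on 532 and 262 reads. That gap was 1.24 in log2 TPM, without a pseudocount. The difference between CHLA 06 and CHLA 05, the nearest line, was 2.61 in log2(TPM + 1). In bulk RNA, fewer cells that express a gene and less of its RNA per cell cannot be told apart.

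BOC reads were spread over many transcripts, and no transcript held more than 24.7% of BOC TPM in a library. Protein-coding transcripts held 39.0% and 44.3% in CHLA 04 and 56.0% and 60.9% in CHLA 06. From protein-coding transcripts alone, CHLA 06 stayed apart from the other lines.

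CDON, the closest relative of BOC, lies on chromosome 11 from 125955796 to 126063335 on the minus strand and showed the opposite order. CHLA 02 had 5.86 TPM, CHLA 04 had 4.55 and 2.75, CHLA 05 had 6.77, and CHLA 06 had 11.7 and 9.63. The CHLA 06 libraries were the highest and the CHLA 04 libraries the lowest, with no overlap. CHLA 06 exceeded CHLA 04 by 2.92-fold, or 1.33 on the log2 scale, on 64 to 363 reads. The 95% Poisson intervals of CHLA 02 (4.94 to 6.91 TPM) and CHLA 05 (5.81 to 7.84 TPM) overlapped, so these were not distinguished at this depth. In reads per kb of merged exons, the difference between CHLA 06 and CHLA 04 was 0.84 and CDON was not called.

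GAS1, a membrane-anchored coreceptor, is a gene of 1 listed transcript on chromosome 9 from 86944363 to 86947189 on the minus strand. CHLA 02 had 10.8 TPM, CHLA 04 had 60.6 and 36.0, CHLA 05 had 14.3, and CHLA 06 had 1.14 and 1.57. Levels were thus highest in CHLA 04, lowest in CHLA 06 and separated without overlap between lines. The mean of CHLA 04 was 35.6-fold above that of CHLA 06, where 25 and 38 reads were recovered. The intervals of CHLA 02 (9.36 to 12.4 TPM) and CHLA 05 (12.6 to 16.1 TPM) did not overlap, though they cover counting error only.

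Within the summed TPM of the coreceptors, BOC held 91.7% for CHLA 02, 91.0% and 91.1% for CHLA 04, and 82.9% for CHLA 05. In CHLA 06 BOC held 63.5% and 45.8%. CDON held 33.2% and 46.6% there, and 0.625% to 5.50% in the other lines. The shares of the CHLA 04 libraries were nearly the same although their BOC TPM differed by 1.67-fold. Coreceptor composition in CHLA 06 was therefore apart from the other lines in both libraries, with a wide gap between them.

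**Figure D4:**
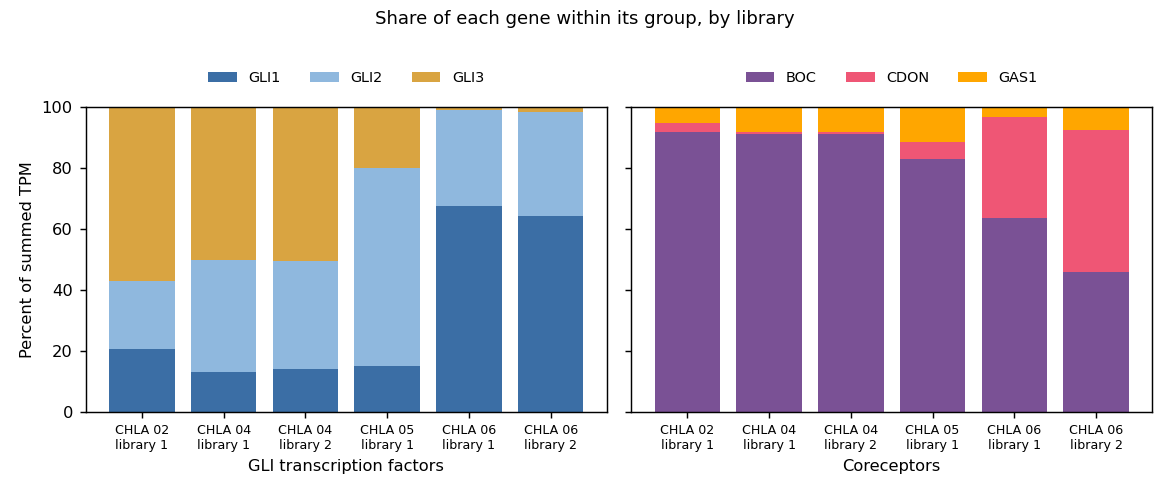
Stacked bars of the percent of summed TPM held by GLI1, GLI2 and GLI3 (left) and by BOC, CDON and GAS1 (right) in each library. GLI1 holds 67.6% and 64.2% of GLI TPM in CHLA 06 and at most 20.7% elsewhere, and CDON holds 33.2% and 46.6% of the coreceptors there.

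SUFU, the cytoplasmic inhibitor of the GLI proteins, lies on chromosome 10 from 102503987 to 102633535 on the plus strand. CHLA 02 had 14.4 TPM, CHLA 04 had 20.3 and 16.7, CHLA 05 had 14.5, and CHLA 06 had 12.1 and 13.5. It varied least among the 9 genes, with 1.44-fold between CHLA 04 and CHLA 06. CHLA 02 and CHLA 05 were at the same level within counting error. Transcript ENST00000369902 held 84.0% to 92.7% of SUFU TPM.

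GLI1, the activator and target gene, lies on chromosome 12 from 57460135 to 57472262 on the plus strand. CHLA 02 had 34.6 TPM, CHLA 04 had 59.6 and 49.1, CHLA 05 had 34.0, and CHLA 06 had 33.4 and 26.99. CHLA 04 was highest in both libraries, while CHLA 02, CHLA 05 and the first CHLA 06 library had overlapping intervals. CHLA 04 was 0.83 above CHLA 06 on the log2 scale, under the limit. GLI1 stood between the percentiles 65.0 and 79.0 of the genes above 0 TPM in every library. Its transcript ENST00000228682 held 69.5% and 68.9% of GLI1 TPM in CHLA 06, with 64.8% for CHLA 02, 48.3% for CHLA 05, and 35.8% and 51.9% for CHLA 04. This transcript alone had 21.3 and 25.5 TPM in CHLA 04, which spanned CHLA 02 (22.4) and the first CHLA 06 library (23.2), and by the most abundant transcript CHLA 04 was 0.16 above CHLA 06 on the log2 scale. By reads per kb of merged exons the difference was 0.42. The higher GLI1 level of CHLA 04 thus lay mostly on its other transcripts. The ratio of GLI1 to SUFU varied little, from 1.99 to 2.94 over the 6 libraries.

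GLI2, the main activator upstream of GLI1, lies on chromosome 2 from 120735623 to 120992653 on the plus strand. CHLA 02 had 37.4 TPM, CHLA 04 had 167 and 126, CHLA 05 had 147, and CHLA 06 had 15.4 and 14.4. CHLA 05 lay between the libraries of CHLA 04, and the CHLA 06 libraries were the lowest. CHLA 04 exceeded CHLA 06 by 9.83-fold, or 3.21 on the log2 scale. CHLA 02 was 1.27 above CHLA 06 and 1.94 below CHLA 05. No GLI2 transcript held more than 19.7% of its TPM, and by the most abundant transcript or by reads per kb of merged exons CHLA 06 was not called apart from all other lines.

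GLI3, which is processed to a repressor in the absence of ligand, lies on chromosome 7 from 41960950 to 42237870 on the minus strand. CHLA 02 had 95.7 TPM, CHLA 04 had 229 and 178, CHLA 05 had 45.3, and CHLA 06 had 0.570 and 0.646. The CHLA 06 values came from 24 and 42 reads, while no other library had fewer than 2207. CHLA 04 exceeded CHLA 06 by 335-fold, or 6.99 in log2(TPM + 1). CHLA 05, the lowest of the other lines, was 4.85 above CHLA 06. In that line GLI3 stood at the percentiles 19.7 and 24.7 of the genes above 0 TPM, against 73.5 to 95.8 in the other lines. Outside CHLA 06, transcript ENST00000395925 held 79.8% to 91.9% of GLI3 TPM.

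Within the summed TPM of the GLI genes, GLI3 held 57.0% for CHLA 02, 50.3% and 50.4% for CHLA 04, 20.1% for CHLA 05, and 1.15% and 1.54% for CHLA 06. GLI2 was the leading GLI gene in CHLA 05, with 64.9%. In CHLA 06 GLI1 led with 67.6% and 64.2%, against 13.1% to 20.7% in the other lines. The leading GLI gene was thus GLI3 in CHLA 02 and CHLA 04, GLI2 in CHLA 05 and GLI1 in CHLA 06, with technical replicates close to each other. The ratio of GLI3 to GLI1 was 0.0171 and 0.0239 in CHLA 06 and 1.33 to 3.85 elsewhere.

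A line was called apart when it differed by more than 1 in log2(TPM + 1) from each other line, with libraries that did not overlap, and the counts by line, here and for the gene lists, all use this rule. CHLA 06 was called lower than each of the other 3 lines for 4 of the 9 genes (BOC, GAS1, GLI2 and GLI3), beside 6.35% of all genes tested. Without CHLA 02, the same 4 genes were lower than in CHLA 04 and CHLA 05, beside 11.7%. SUFU and GLI1 were also lowest in both CHLA 06 libraries, but within the limit. CHLA 06 was called higher than the other 3 for none of the 9 genes, beside 2.1% of all genes, as CDON, highest in both CHLA 06 libraries, was 0.59 above CHLA 05. CHLA 04 was called higher than the other 3 for BOC, GAS1 and GLI3, beside 3.34%, and lower for none, beside 3.44%. PTCH1, SUFU and GLI1 were highest, and CDON lowest, in both CHLA 04 libraries within the limit. Without CHLA 02 the same 3 genes were higher in CHLA 04, beside 6.62%. The call of GLI3 in CHLA 04 was lost after median ratio scaling, quantile normalization, by the most abundant transcript, by reads per kb of merged exons and without its first library. At a limit of 4-fold, CHLA 04 was apart for none of the 9 genes, and CHLA 06 was lower for BOC, GAS1 and GLI3. CHLA 05 was apart for none of the 9 genes, beside 6.16% higher and 1.59% lower among all genes. None was apart in CHLA 02, beside 0.249% higher and 0.0561% lower.

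Between CHLA 06 and CHLA 04, the lines with technical replicates, BOC, GAS1, GLI2 and GLI3 were lower in CHLA 06, beside 21.9% of 15288 genes. CDON was higher in CHLA 06, beside 15.2%. The median difference, CHLA 06 minus CHLA 04, was -0.83 for the 9 genes and -0.23 for all genes. Median ratio scaling moved the median of all genes to 0.00, and all 9 genes kept their sign under it. CHLA 04 had the highest mean of the lines for 7 of the 9 genes, all except SMO and CDON, beside 35.5% of all genes. For GLI2 its libraries spanned CHLA 05, and the count was 6 by median ratio, quantile normalization, protein-coding transcripts, reads per kb of merged exons or without the first CHLA 04 library.

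The gene spans held 53 RepeatMasker LTR elements, remnants of endogenous retroviruses, of 720177 in a separate set of files. None of the 53 overlapped a listed exon of its gene, and none was of the HML-2 types HERVK-int or LTR5_Hs. Reads were recovered on 9 of them, or 17.0%, against 16.3% of all LTR elements. All of these lay in GLI2 and GLI3, and 351 of 352 reads in GLI2 and 430 of 433 reads in GLI3 were on elements in the orientation of the gene. The 13 elements in SUFU, 4 in CDON and 3 in BOC had no read, and all of these lay opposite to the gene. PTCH1, SMO, GAS1 and GLI1 held no element.

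Elements in GLI3 had 85 reads for CHLA 02, 139 and 178 for CHLA 04, 31 for CHLA 05, and 0 for both CHLA 06 libraries. In parts per 1000000 LTR reads this was 183 for CHLA 02, 391 and 348 for CHLA 04, and 74.9 for CHLA 05. A count of 0 allows up to 6.69 and 6.23 parts in the CHLA 06 libraries, for counting error only. The order of the lines was that of GLI3 TPM. The leading GLI3 elements were MLT1F1 at 42102988 to 42103387 with 185 reads in all and MLT1D at 42029981 to 42030415 with 165.

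In the same parts per 1000000, elements in GLI2 had 77.3 for CHLA 02, 236 and 205 for CHLA 04, 261 for CHLA 05, and 13.4 and 27.01 for CHLA 06. CHLA 06 was the lowest and CHLA 02 the next, as in GLI2 TPM. LTR values are on a scale of their own, so only the order of lines can be set beside gene TPM. These reads come from the same libraries, so they are another readout of the same RNA and not a replicate.

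The ligands were near 0. SHH had at most 5 reads in a library, IHH at most 3 and DHH at most 8, and all were under 1 TPM in every line. These genes are named outside the rule for named genes, after their values were seen. Of 11 genes of ligands and their handling, 7 had at least 1 TPM in a line, and 6 of them were called between lines, 5 without CHLA 02. Over all genes tested these shares were 51.2% and 48.6%, which are the background of the list counts that follow as well. CHLA 06 was called lower than the other 3 lines for 4 (6.35% of all genes), namely SCUBE1, GPC3, SCUBE3 and DISP1, and higher for none (2.1%). Without CHLA 02 the same 4 were called lower (11.7%) and none higher (8.99%). SCUBE1, which helps to release lipid-modified ligand, had 169 TPM in CHLA 02, with 712 and 604 for CHLA 04, 23.7 for CHLA 05, and 0.221 and 0.176 for CHLA 06. GPC3, a glypican that competes with PTCH1 for ligand, had 478 TPM in CHLA 02, with 323 and 265 for CHLA 04, 28.6 for CHLA 05, and 2.14 and 1.40 for CHLA 06. DISP1, needed for ligand release, was highest in CHLA 05 (69.6 TPM) and lowest in CHLA 06 (8.01 and 10.6). SCUBE2 was also highest in CHLA 05, at 31.0 TPM against 0.671 to 3.47 in the other libraries.

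Of 14 intracellular regulators, all had at least 1 TPM and 6 were called between lines, with and without CHLA 02. Their median range was 0.77, against 1.02 for all genes tested. GPR161, a ciliary receptor that restrains the pathway, had 11.0 TPM in CHLA 02, with 47.4 and 41.3 for CHLA 04, 39.8 for CHLA 05, and 2.28 and 3.06 for CHLA 06. It was the only regulator called lower in CHLA 06 than in each other line (6.35% of all genes), also without CHLA 02 (11.7%). EVC2, which binds SMO at the cilium, was near 0 in CHLA 04 (0.0531 and 0 TPM) and at 5.97 to 12.6 in the other libraries. PRKACB, a catalytic subunit of protein kinase A, was highest in CHLA 06 (476 and 580 TPM) and lowest in CHLA 05 (31.0). It was the only regulator called higher in CHLA 06 than in each other line (2.1% of all genes). Without CHLA 02, PRKACA was called higher as well, beside 8.99% of all genes. The remaining called genes were PRKACA, KIF7 and ADRBK1, with ranges of 1.21, 1.03 and 1.03. CSNK1A1, the kinase with the highest mean in the list, varied by 0.26 on the log2 scale.

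Of 10 cilium genes, all had at least 1 TPM and 3 were called, with and without CHLA 02. Their median range was 0.65. DYNC2H1, the motor of retrograde transport in the cilium, had 42.3 TPM in CHLA 02, with 20.0 and 21.3 for CHLA 04, 29.3 for CHLA 05, and 74.3 and 77.5 for CHLA 06. RPGRIP1L had a range of 1.46 and IFT172 of 1.06, both lowest in CHLA 05. The highest mean was that of TULP3, at 43.3 to 62.3 TPM. None of the 10 was called lower in CHLA 06 than in every other line (6.35% of all genes), and none higher (2.1%). Without CHLA 02, none was called lower (11.7%), and 1, DYNC2H1, was called higher (8.99%).

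Of 14 reported hedgehog target genes other than PTCH1 and GLI1, 11 had at least 1 TPM in a line and 9 were called, with and without CHLA 02. They did not follow a common order. HHIP, which binds and sequesters ligand, had 45.3 TPM in CHLA 02, with 2.11 and 2.47 for CHLA 04, 163 for CHLA 05, and 72.5 and 57.7 for CHLA 06. It was thus lowest in CHLA 04, where GLI1 and PTCH1 had their highest means. MYCN, a driver of progenitor growth, had 26.3 TPM in CHLA 02, with 113 and 69.6 for CHLA 04, 109 for CHLA 05, and 0.0497 and 0.0900 for CHLA 06. SFRP1, a WNT antagonist, had 153 TPM in CHLA 02, with 593 and 711 for CHLA 04, 3.14 for CHLA 05, and 0.297 and 0.317 for CHLA 06. IGFBP6 (range 6.65) and the cyclin gene CCND2 (4.82) were highest in CHLA 06 and lowest in CHLA 04. BCL2 was highest in CHLA 05 and lowest in CHLA 06 (range 3.57). CHLA 06 was called lower than the other 3 lines for 3 of the 11 genes and higher for none, beside 6.35% and 2.1% of all genes tested. Without CHLA 02 it was called lower for 4 and higher for 2, IGFBP6 and CCND2, beside 11.7% and 8.99% of all genes.

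**Figure D5:**
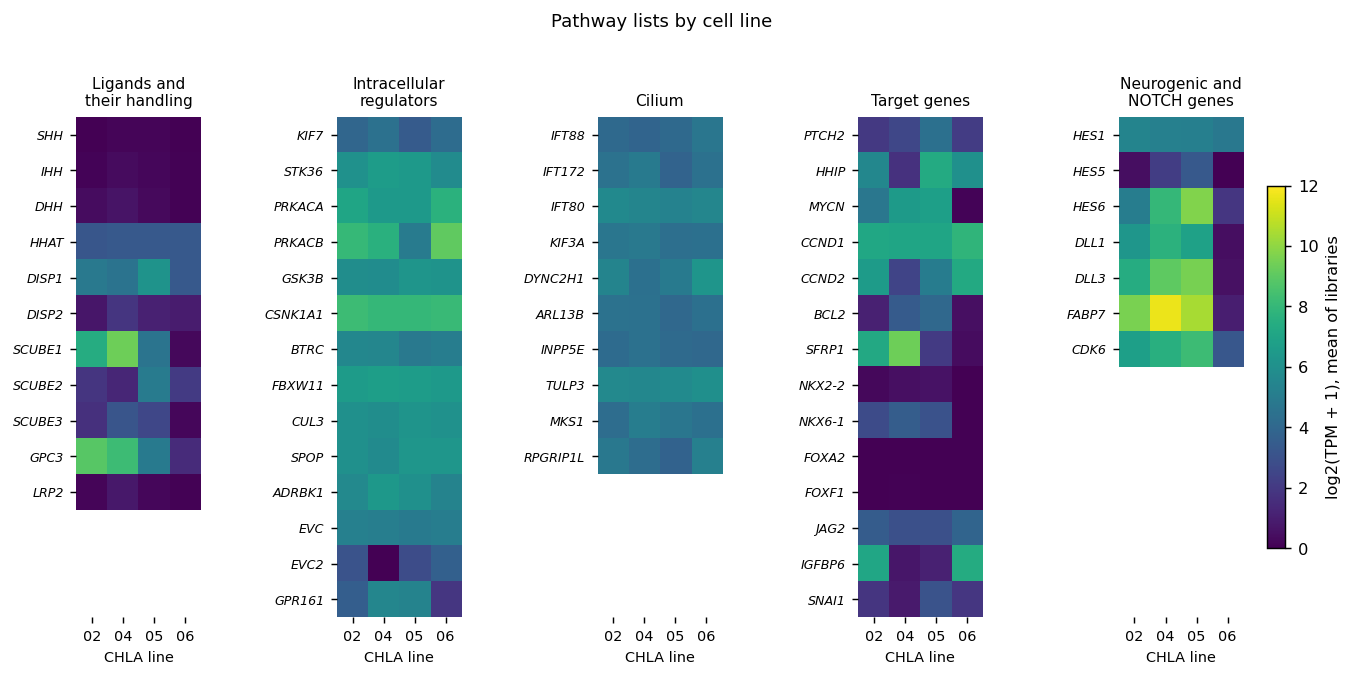
Heat map of log2(TPM + 1), averaged over the libraries of each CHLA line, for the genes of 5 lists. Regulator and cilium genes are mostly at like levels in the 4 lines, whereas SCUBE1, GPC3, MYCN, SFRP1, FABP7, DLL3, HES6, DLL1 and CDK6 are lowest in CHLA 06.

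Of 7 neurogenic and NOTCH genes linked with the SHH subgroup of AT/RT, 6 were called between lines, with and without CHLA 02. CHLA 06 was called lower than the other 3 lines for 5 of them, beside 6.35% of all genes tested. Without CHLA 02 it was called lower than CHLA 04 and CHLA 05 for 6, beside 11.7%. FABP7, a radial glial lipid-binding protein, had 756 TPM in CHLA 02, with 2236 and 4102 for CHLA 04, 1400 for CHLA 05, and 0.566 and 1.43 for CHLA 06. DLL3, HES6, DLL1 and CDK6 were also lower in CHLA 06 than in the other lines, with ranges of 8.99, 7.82, 7.27 and 4.96. The lists were drawn up with earlier results of these data known, so their direction is not independent evidence.

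Among 16035 genes, the pattern closest to GLI3 over the 6 libraries was that of TOX3, at a Euclidean distance of 0.521 between centred log2(TPM + 1) values. GPRC5B (0.848) and SEMA5B (0.923) were next. TOX3 had 75.2 TPM in CHLA 02, with 125 and 127 for CHLA 04, 39.9 for CHLA 05, and 0.0414 and 0.214 for CHLA 06. Closest to BOC were MYCL (0.735), SOGA3 (0.747) and ZNF785 (0.944). Of the other pathway genes, GAS1 ranked 66 in closeness to BOC and GLI3 ranked 420. The distances are descriptions over 6 libraries of 4 lines.

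Markers of other cell types moved with the lines. The 4 fibroblast markers summed to 409 TPM for CHLA 02, to 4.98 and 1.36 for CHLA 04, to 18.8 for CHLA 05, and to 645 and 490 for CHLA 06. Most of that was COL1A1, at 387 TPM in CHLA 02 and 600 and 459 in CHLA 06, while COL1A2 was at 1.36 TPM in CHLA 02 and 0 and 0.0259 in CHLA 06. The 4 epithelial markers summed to 82.1 TPM for CHLA 02, to 0.111 and 0.303 for CHLA 04, to 12.8 for CHLA 05, and to 109 and 110 for CHLA 06. KRT8 led them, and EPCAM was at 2.47 to 2.60 TPM in CHLA 02 and CHLA 06. CDH1 made most of the sum in CHLA 05, at 12.4 TPM, and was at or under 0.0739 TPM in every other library. These sums were highest in CHLA 02 and CHLA 06, where BOC, GAS1, GLI2 and GLI3 were lower than in CHLA 04. BOC (102 TPM), GAS1 (14.3 TPM) and GLI3 (45.3 TPM) were also lower than in CHLA 04 in CHLA 05, whose sums were 18.8 and 12.8 TPM. GLI2 in CHLA 05 lay between the CHLA 04 libraries. The part of the marker sums in those results was not tested. None of 4 blood markers and 1 of 3 endothelial markers (VWF) reached 1 TPM in a line.

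Of 5 neural progenitor markers, all reached 1 TPM in a line. VIM was the highest of them, at 19464 and 14708 TPM in CHLA 06 and 4629 to 13742 TPM elsewhere. PAX6 went the other way, at 0.604 and 0.937 TPM in CHLA 06 and 15.8 to 36.9 TPM elsewhere, as did FABP7. SOX2 was at or under 0.470 TPM in every library except that of CHLA 05, where it was at 4.03. NES was also highest in CHLA 05, at 27.6 TPM, with 25.6 for CHLA 02, 10.8 and 6.93 for CHLA 04, and 5.21 and 10.5 for CHLA 06. TUBB3 led the neuronal markers at 205 to 455 TPM and was highest in CHLA 06, while DCX stayed under 1 TPM in every library. SYP of the same list went the other way, at 4.18 and 2.32 TPM in CHLA 06 and 8.52 to 22.9 TPM elsewhere. It was called lower in CHLA 06 than in each other line (6.35% of all genes), also without CHLA 02 (11.7%). GFAP led the astrocyte and oligodendrocyte markers, at 23.9 to 151 TPM in CHLA 02, CHLA 04 and CHLA 05 and 0.0379 to 0.0419 in CHLA 06. MBP of the same list had 31.9 TPM in CHLA 02 and 23.9 and 22.3 in CHLA 06, with 0 in both CHLA 04 libraries and 0.267 in CHLA 05. Of 4 ATRT-TYR markers, MITF alone reached 1 TPM in a line, and TYR was listed at 0 in every library. The study states, citing earlier work, that these lines lack SMARCB1 expression. SMARCB1 RNA was at 13.5 to 26.2 TPM in the 6 libraries, and which exons its reads covered is not in these values. SMARCA4 led the SWI/SNF list at 104 to 342 TPM, and SMARCA2 was at 1.36 and 1.23 TPM in CHLA 06 and 20.9 to 51.4 elsewhere.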

How the data were processed

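The authors demultiplexed stranded total RNA reads (TruSeq, 125 bp paired-end, Illumina HiSeq) with CASAVA 1.8.2, trimmed them with Trimmomatic and mapped them to GRCh38 with Ensembl release 82 in the CLCbio Genomics Workbench RNA-Seq tool at default settings. They deposited TPM per transcript and, from a separate mapping, TPM per LTR element, 1 library per file. Versions of the other tools are not given in the sources used here, nor is the use of strand in counting.

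TPM was summed by gene identifier, with no p-value computed. Technical replicates were averaged. Reads were recovered as whole multiples of a step in TPM times length. At least 99.6% of values above 0 came out whole to within 0.05 read, or within the rounding of the LTR values. The recovery and the call rule were run on simulated data. The noise there was a fixed setting, not taken from the technical replicates, so it gives no error rate for these calls. Exact Poisson intervals (95%) cover counting error only, and PCR duplicates could not be told from separate molecules.

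Calls used a pseudocount of 1 and genes of at least 1 TPM in a line. Alternatives were other pseudocounts, scalings, transcripts, filters, a fold of 4, and leaving out libraries. Protein-coding transcripts, reads per kb of merged exons, leaving out CHLA 02 and, for the counts by line, the fold of 4 were added after seeing the data. The genes and lists were chosen with earlier results of these data known. Named genes were the 9 genes, at most 6 called genes by size and the highest gene of each pathway list, the 3 closest patterns to the widest and the highest of the 9, and the highest of each marker list. Some ligand and marker genes were named outside this rule. Protein sequences were not analysed here, and 1 gene of the neurogenic list is not reported here. Python 3.11.15, pandas 2.3.3, numpy 2.4.6 and scipy 1.17.1 were used.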

Additional observations from a re-analysis of the deposited data

How the results depend on the processing

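No paired analysis was possible because no test between lines was made and the replicate numbers are those of technical replicates within a line. Of 85 counts of pathway genes under the alternatives whose reported count was above 0, 82 stayed within 1.5 times it, and 82 more, reported as 0, stayed at 0. The exceptions were the count of genes higher in CHLA 06 than in CHLA 04, which was 0 by reads per kb of merged exons, where CDON (0.84) was lost, and 0 under a fold of 4, and the count of genes higher in CHLA 04 than in the other 3 lines, which was 0 under a fold of 4. Of the differences of single genes none was reversed. PTCH1, CHLA 04 minus CHLA 02, lost its call at 0.96 by the median ratio, at 0.88 by quantile normalization and under a fold of 4, which left 4 of the 9 genes called beside 20.9% of all genes. Leaving out 1 technical replicate at a time left 6 genes called between lines. The depth limits CDON, GAS1 and GLI3 most, with fewer than 100 reads in some libraries.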
